A study of Mus musculus with 27 samples.

Results

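Snai1, Snai2, Twist1, Twist2, Prrx1, Prrx2, Tcf4 and Foxc2 encode transcription factors of mesenchymal cells, and they were chosen by symbol from the 24953 genes of the expression table. All 8 symbols were found. The study asked how Runx1 shapes open chromatin and gene expression in mK4 cells, a mouse line derived from the metanephric mesenchyme of the embryonic kidney. Polyadenylated RNA was sequenced from 3 control mK4 libraries, 3 Runx1KO libraries and 3 ZebDKO libraries, all from cells grown to or near confluency in serum. Accessible chromatin was mapped by ATAC-seq in control and Runx1KO cells, and Runx1 and Runx2 binding was mapped by ChIP-seq. Levels are given as TPM, which scales transcripts to a fixed total, a share of the RNA of a library that is corrected for gene length.

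Control cells were the parental mK4 line with no deletion. Runx1KO cells were a CRISPR-derived sub-line that lacked the third exon of Runx1, which holds the start codon used in mK4 cells. ZebDKO cells were made from mK4 cells in the same way, by deleting the start-codon exons of both Zeb1 and Zeb2, and they kept an intact Runx1 gene. Knockout cells were picked as clones, and the number of clones behind each set of 3 libraries is not given in the sources used here, so a property of 1 clone and an effect of the deletion cannot be told apart. The methods describe 3 parallel cultures of each line and the same RNA kit for all, so the p-values below measure the spread between cultures of a line.

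Snail proteins are zinc-finger repressors that bind E-box sequences and recruit histone deacetylases to epithelial genes such as E-cadherin. Twist proteins are basic helix-loop-helix factors that bind E-boxes as dimers with the widely expressed E proteins, to which Tcf4 belongs, while Id proteins bind the same E proteins without binding DNA. Prrx proteins are homeodomain factors of limb, craniofacial and other embryonic mesenchyme, and Foxc2 is a forkhead factor of paraxial, vascular and kidney mesenchyme.

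The 3 libraries of a group were alike, with 12541 to 12697 genes at 1 TPM or more in each of the 9 libraries. Sequencing depth cannot be recovered from TPM values and is unknown here. The deletions themselves were not visible in these values, because TPM is summed over a whole gene. Runx1 was at 15.6 to 18.7 TPM in control, 28.5 to 30.3 TPM in Runx1KO and 9.4 to 10.5 TPM in ZebDKO libraries. Zeb1 was at 14.2 to 15.6 TPM in control and 14.8 to 16.8 TPM in ZebDKO libraries, but at 0.1 to 0.2 TPM in Runx1KO libraries. Zeb2 was at 4.9 to 5.5 TPM in control, 0.2 TPM in every Runx1KO library and 1.6 to 1.8 TPM in ZebDKO libraries. Runx2 was at 4.9 to 6.0 TPM in control, 3.6 to 3.9 TPM in Runx1KO and 3.1 to 3.5 TPM in ZebDKO libraries. Of markers of kidney progenitor mesenchyme, 6 of 10 reached 1 TPM on average in control cells, Osr1, Pax2 and Hoxa11 among them, whereas Six2, which defines the nephron progenitors, was at 0 TPM in every control library. Among markers of other cell types, Ptprc was at 0 TPM in all 9 libraries and Pecam1 at 0.1 TPM or less in control and Runx1KO libraries. Csf1r, a macrophage receptor, was at 28.8 to 30.5 TPM in Runx1KO and 23.1 to 26.1 TPM in ZebDKO against 0.4 to 1 TPM in control. Hba-a1 was at 5 to 7.7 TPM in control, and Cdh5 reached 5.5 TPM in a ZebDKO library.

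Of the 8 factors, Twist2 stood far above the rest, and 5 were expressed well enough to be tested. Twist2 ranked 117 among all genes in control cells, 489 in Runx1KO and 252 in ZebDKO. It made up 91.7% of the summed TPM of the 8 genes in control, 86.6% in Runx1KO and 90.6% in ZebDKO. In the control libraries the order by mean TPM was Twist2 at 915, Prrx2 at 50.1, Snai1 at 21.9, Tcf4 at 6.03, Snai2 at 4.60, Foxc2 at 0.33, Prrx1 at 0.20 and Twist1 at 0. No ranges of neighbours overlapped among the 5 highest, whereas the control ranges of Foxc2 and Prrx1 met at 0.3 TPM. In Runx1KO cells Snai2 stood above Tcf4 without overlap and in ZebDKO cells it did so too, as the plot of TPM by library shows. The place of Tcf4 depended on the table. In the separate table of 6 libraries, which holds the control and Runx1KO samples with another scaling, Tcf4 was at 16.79 to 17.7 TPM in control, above Snai1 at 11.57 to 12.07 TPM. In Runx1KO that table put Tcf4 at 10.52 to 11.31 TPM, above Snai2 at 4.3 to 4.74 TPM.

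**Figure D1:**
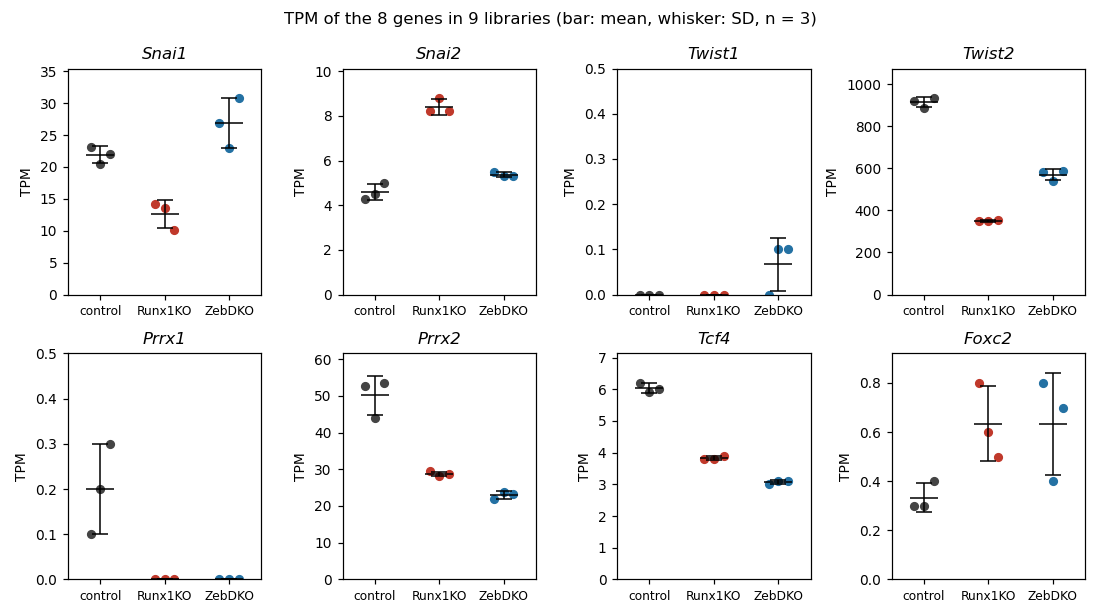
TPM of each of the 8 genes in each of the 9 libraries, with 1 point per library, a bar at the group mean and whiskers of 1 SD (n = 3 per group). Each panel has its own linear axis from 0, and Twist2 runs to 934.5 TPM in a control library while Twist1 never passed 0.1 TPM.

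Differences were tested with limma on log2(TPM + 1), and p-values were adjusted by the Benjamini-Hochberg method over all genes that reached 1 TPM in at least 3 of the 6 libraries compared. A gene was called when it changed by more than 2-fold with an adjusted p under 0.05. Fold changes on this scale understate changes of genes near 1 TPM. Runx1KO and ZebDKO cells were each set against the same 3 control libraries, so the results of those comparisons are not independent, and the knockouts were also compared directly with no control library. In Runx1KO against control, 1 of the 5 tested members was called, Twist2, beside 13.0% of all 13067 genes tested. It was lower, as were 5.10% of genes, and no member was called higher, as were 7.91% of genes. In ZebDKO against control, 1 of 5 was called, Prrx2, beside 14.8% of 12974 genes. It was lower, as were 7.28% of genes, and 7.50% of genes but no member were called higher. In Runx1KO against ZebDKO, 1 of 5 was called, Snai1, beside 15.8% of 13071 genes. It was lower in Runx1KO, as were 6.59% of genes, and 9.20% of genes but no member were called higher.

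With no limit on size, all 5 tested members passed the adjusted p in each of the 3 comparisons, and so did 70.5%, 79.4% and 80.0% of all genes tested. In Runx1KO against control 1 member passed upward and 4 downward, beside 30.4% and 40.1% of genes. In ZebDKO against control 2 passed upward and 3 downward, beside 26.9% and 52.5%. In Runx1KO against ZebDKO 3 passed upward and 2 downward, beside 50.2% and 29.8%. The libraries of the groups did not overlap for 5 of 5 members in Runx1KO against control, 4 of 5 in ZebDKO against control and 5 of 5 in Runx1KO against ZebDKO, where 73.7%, 81.0% and 81.7% of all genes did not overlap. The median gene lay at a log2 fold change of -0.06 in Runx1KO against control, -0.18 in ZebDKO against control and 0.15 in Runx1KO against ZebDKO. For each member compared with ZebDKO libraries, the value after median-ratio scaling, which puts the median gene at about 0, is given beside the value as deposited, and for other genes it is given where the comparison holds ZebDKO libraries or where a call ends.

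**Figure D2:**
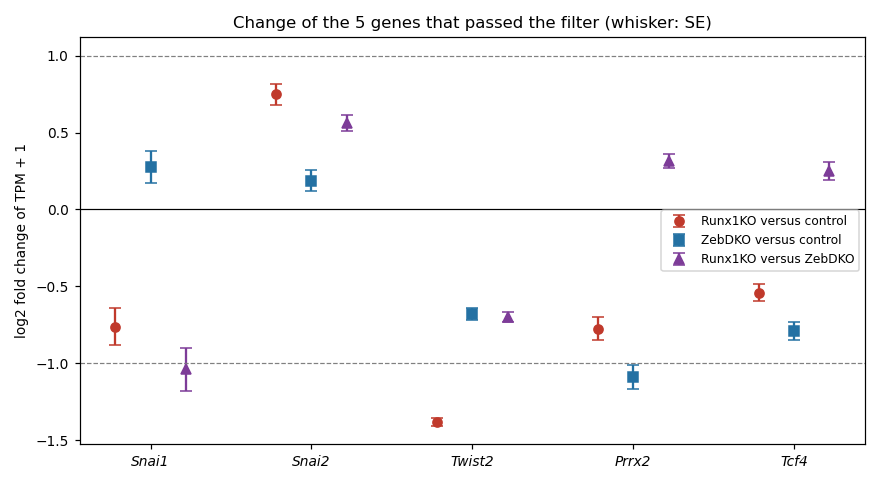
The log2 fold change of TPM + 1 for the 5 genes that passed the filter, in Runx1KO against control (circles), ZebDKO against control (squares) and Runx1KO against ZebDKO (triangles), with whiskers of 1 SE (3 libraries per group). Dashed lines mark a 2-fold change, which was passed by Twist2 at -1.38 in Runx1KO, Prrx2 at -1.09 in ZebDKO and Snai1 at -1.04 between the knockouts.

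Twist2, a Twist-family repressor of mesenchymal and dermal cells, fell in both knockouts and fell further in Runx1KO. Control libraries gave 920.4, 889.1 and 934.5 TPM, against 347.7, 348.9 and 355.8 TPM in Runx1KO, and 581.0, 541.3 and 589.1 TPM in ZebDKO. No group overlapped another, and the knockout libraries lay in 2 separate bands with Runx1KO the lower. Mean TPM was 2.61-fold lower in Runx1KO than in control, a log2 fold change of -1.38 ± 0.03 (SE; limma adjusted p = 2.69e-08). In ZebDKO it also fell against control, at -0.68 ± 0.04 (limma adjusted p = 3.43e-06), or -0.48 after median-ratio scaling. The direct comparison gave a further 1.63-fold lower mean in Runx1KO than in ZebDKO, at -0.70 ± 0.04 (limma adjusted p = 1.75e-06), or -0.86 after median-ratio scaling. In the table of 6 libraries Twist2 was at 649.69, 618.52 and 657.15 TPM in control and 212.71, 221.29 and 217.55 TPM in Runx1KO.

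Twist1, the other Twist factor and the one classically tied to epithelial-mesenchymal transition, was at 0 TPM in all control and Runx1KO libraries. In ZebDKO it was at 0, 0.1 and 0.1 TPM. Twist1 thus stayed at or under 0.1 TPM in every library, and it did not enter the test. All of the Twist-family RNA that was measured came from Twist2 in control and Runx1KO libraries.

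Snai1, the Snail repressor that acts early in epithelial-mesenchymal transition, was lowest in Runx1KO. It was at 23.2, 20.5 and 22 TPM in control, 14.2, 13.5 and 10.1 TPM in Runx1KO, and 26.9, 23.0 and 30.8 TPM in ZebDKO. All Runx1KO libraries lay under all others, whereas 1 ZebDKO library lay within the control range. Snai1 fell in Runx1KO by 0.76 ± 0.12 on the log2 scale (SE; limma adjusted p = 0.00098), with a mean 1.74-fold lower than in control. In ZebDKO the log2 fold change was 0.28 ± 0.10 (limma adjusted p = 0.037), or 0.47 after median-ratio scaling, and the adjusted p passed 0.05 without control replicate 2 (0.116), without control replicate 3 (0.0832), without ZebDKO replicate 1 (0.0914) and without ZebDKO replicate 3 (0.1002).

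Between the knockouts, Snai1 was 2.13-fold lower in Runx1KO than in ZebDKO, at a log2 fold change of -1.04 ± 0.14 (limma adjusted p = 0.00032), or -1.19 after median-ratio scaling. The call at 2-fold was lost without Runx1KO replicate 3, at -0.90, and without ZebDKO replicate 3, at -0.94. Those were the lowest of the Runx1KO libraries and the highest of the ZebDKO libraries.

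Snai2, also called Slug, a Snail repressor of neural crest and other migrating cells, moved the other way in Runx1KO. It was at 4.3, 4.5 and 5.0 TPM in control, 8.2, 8.8 and 8.2 TPM in Runx1KO, and 5.5, 5.3 and 5.3 TPM in ZebDKO. Runx1KO libraries were highest, and ZebDKO libraries lay just above control without overlap. Snai2 rose 1.83-fold in Runx1KO, at a log2 fold change of 0.75 ± 0.07 (SE; limma adjusted p = 5.5e-05). In ZebDKO the change was 0.19 ± 0.07 (limma adjusted p = 0.039), or 0.36 after median-ratio scaling, and leaving out any 1 library but control replicate 3 gave an adjusted p over 0.05, from 0.0675 without ZebDKO replicate 2 to 0.116 without control replicate 1. Runx1KO exceeded ZebDKO by 0.56 ± 0.05 (limma adjusted p = 4.6e-05), or 0.42 after median-ratio scaling.

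The ratio of Snai2 to Snai1 TPM was 0.21 ± 0.02 in control, 0.68 ± 0.12 in Runx1KO and 0.20 ± 0.03 in ZebDKO (SD, n = 3). It was higher in every Runx1KO library than in any other, and its control and ZebDKO ranges overlapped. Snai1 stayed the higher of the pair in every library. Snai3, a Snail gene that is no member, was at 0.8, 2.3 and 1.5 TPM in control, 30.7, 30.4 and 29.8 TPM in Runx1KO, and 11.3, 11.6 and 12.1 TPM in ZebDKO. It rose in both knockouts, by a log2 fold change of 3.67 in Runx1KO (limma adjusted p = 4.3e-06) and 2.37 in ZebDKO (limma adjusted p = 2.3e-05), or 2.52 in ZebDKO after median-ratio scaling, and in Runx1KO it was the highest of the Snail genes. Summed over Snai1, Snai2 and Snai3, Snail RNA was 28.0 ± 0.6 TPM in control, 51.3 ± 2.8 TPM in Runx1KO and 43.9 ± 4.2 TPM in ZebDKO (SD, n = 3).

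Prrx2, a homeodomain factor of embryonic mesenchyme, fell in both knockouts, and this time ZebDKO was the lower. It was at 52.8, 44.0 and 53.5 TPM in control, 29.4, 28.2 and 28.7 TPM in Runx1KO, and 21.8, 23.8 and 23.2 TPM in ZebDKO. The 3 groups did not overlap. Mean TPM was 1.74-fold lower in Runx1KO, at a log2 fold change of -0.77 ± 0.07 (SE; limma adjusted p = 8.3e-05). It was 2.18-fold lower in ZebDKO, at -1.09 ± 0.08 (limma adjusted p = 1.1e-05), but the value after median-ratio scaling was -0.89, short of the 2-fold limit. Runx1KO stood above ZebDKO by 0.32 ± 0.04 (limma adjusted p = 0.00035), or 0.16 after median-ratio scaling.

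Prrx1, the paralogue of Prrx2 that marks limb and stromal mesenchyme, was nearly absent. It was at 0.1, 0.2 and 0.3 TPM in control and at 0 TPM in all Runx1KO and ZebDKO libraries. Both knockouts lay under control without overlap, and the exact permutation test (two-sided, 3 against 3) gave p = 0.1 for each, the smallest that this design allows. In the table of 6 libraries Prrx1 was again listed at 0 TPM in all 3 Runx1KO libraries and at 0.19, 0.21 and 0.37 TPM in control.

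Tcf4, an E protein that dimerises with Twist factors, fell in both knockouts, with ZebDKO the lower. It was at 6.2, 5.9 and 6.0 TPM in control, 3.8, 3.8 and 3.9 TPM in Runx1KO, and 3.0, 3.1 and 3.1 TPM in ZebDKO. The spread within a group was small and no groups overlapped. The log2 fold change was -0.54 ± 0.05 in Runx1KO (SE; limma adjusted p = 9.7e-05) and -0.79 ± 0.06 in ZebDKO (limma adjusted p = 1.4e-05), or -0.63 in ZebDKO after median-ratio scaling. Runx1KO exceeded ZebDKO by 0.25 ± 0.06 (limma adjusted p = 0.0061), but by 0.13 with an adjusted p of 0.086 after median-ratio scaling, which ended the call by p.

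Foxc2 was low throughout, and its direction in Runx1KO differed between the deposited tables. It was at 0.3, 0.3 and 0.4 TPM in control, 0.8, 0.6 and 0.5 TPM in Runx1KO, and 0.8, 0.4 and 0.7 TPM in ZebDKO. Runx1KO lay above control without overlap (two-sided exact permutation p = 0.1, the smallest possible), whereas ZebDKO met the control range (exact permutation p = 0.2). In the table of 6 libraries, Foxc2 was instead at 0.13, 0.13 and 0.16 TPM in control and at 0, 0.03 and 0 TPM in Runx1KO, so no direction can be given for it. Snai1, Twist2, Prrx2 and Tcf4 were lower in Runx1KO than in control in both tables, and Snai2 was higher in both.

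Among the partners and inhibitors of Twist factors, Id2 changed most in each knockout against control. Of Tcf3, Tcf12, Id1, Id2, Id3 and Id4, 5 were tested. In Runx1KO against control 1 was called lower and none higher, beside 5.10% and 7.91% of all genes. The median log2 fold change was -0.26 beside -0.06 over all genes. In ZebDKO against control 1 was also called lower and none higher, beside 7.28% and 7.50% of all genes. The median there was -0.14 beside -0.18. Id2 was at 347.5, 320.0 and 336.3 TPM in control, 74.7, 68.9 and 80.0 TPM in Runx1KO, and 95.1, 97.4 and 88.3 TPM in ZebDKO. It was the called gene in both, at -2.15 ± 0.06 in Runx1KO (SE; limma adjusted p = 1.4e-07) and -1.83 ± 0.05 in ZebDKO (limma adjusted p = 9.6e-08), or -1.62 in ZebDKO after median-ratio scaling.

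Id3 separated the knockouts. It was at 294.1, 310.4 and 301.4 TPM in control, 248.6, 240.4 and 267.0 TPM in Runx1KO, and 578.7, 534.6 and 456.0 TPM in ZebDKO. In Runx1KO against ZebDKO it was the 1 called gene of the list, where 6.59% of all genes were called lower. Its log2 fold change was -1.05 ± 0.09 (SE; limma adjusted p = 1.9e-05), or -1.204 after median-ratio scaling. Id1 ranged from 71.3 to 90.3 TPM over the 9 libraries with overlap in every comparison, and Id4 stayed at 0.3 TPM or less.

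The E proteins Tcf3 and Tcf12 changed by -0.27 and -0.24 in Runx1KO and by -0.14 and -0.56 in ZebDKO on the log2 scale. After median-ratio scaling they were at 0.06 and -0.36 in ZebDKO, so the direction of Tcf3 there turned with the scaling. Summed TPM of Tcf3, Tcf12 and Tcf4 was 57.4 ± 0.8 in control, 46.7 ± 0.8 in Runx1KO and 42.1 ± 0.4 in ZebDKO (SD, n = 3). Twist2 TPM per TPM of these E proteins was 15.9 ± 0.2 in control, 7.51 ± 0.09 in Runx1KO and 13.6 ± 0.5 in ZebDKO (SD, n = 3). The ratio in Runx1KO lay under that of every control and ZebDKO library. These sums and ratios were taken from the table of 9 libraries alone. In the table of 6 libraries mean control Tcf4 was 17.1 TPM, against 6.03 here, and mean control Twist2 was 642 TPM, against 915. How far the sums and ratios depend on the table was not tested.

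**Figure D3:**
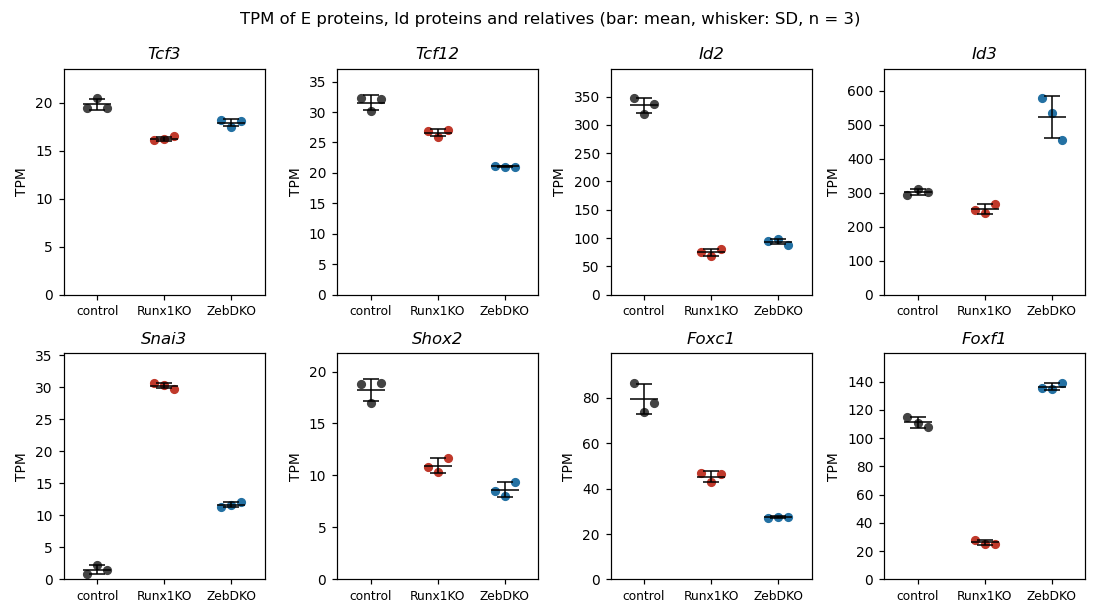
TPM in each of the 9 libraries of E proteins (Tcf3, Tcf12), Id proteins (Id2, Id3) and relatives of the members (Snai3, Shox2, Foxc1, Foxf1), with 1 point per library, a bar at the group mean and whiskers of 1 SD (n = 3 per group). Id2 was 68.9 to 97.4 TPM in the knockouts against 320.0 to 347.5 TPM in control, and Foxf1 was low in Runx1KO alone.

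Of 18 close relatives of the members, 8 were expressed well enough to be tested in each comparison. In Runx1KO against control 1 was called higher and 1 lower, beside 7.91% and 5.10% of all genes. In ZebDKO against control 1 was called higher and 2 lower, beside 7.50% and 7.28%. In Runx1KO against ZebDKO 1 was called higher and 1 lower, beside 9.20% and 6.59%. Foxf1, a forkhead factor of visceral mesenchyme, changed by -2.05 in Runx1KO against control and by -2.34 in Runx1KO against ZebDKO on the log2 scale, the last being -2.49 after median-ratio scaling, with a mean of 26.2 TPM in Runx1KO against 111 in control and 136 in ZebDKO. Foxc1, the paralogue of Foxc2, had a mean of 79.3 TPM in control, 45.3 in Runx1KO and 27.5 in ZebDKO, and was called lower in ZebDKO at -1.49, as was Foxf2 at -1.12. After median-ratio scaling Foxc1 was at -1.29 and still called, whereas Foxf2 was at -0.93 and no longer past 2-fold. Foxc1 thus stood far above Foxc2 in every group. Of the relatives under the filter, Hand1, Hand2, Tcf21, Msc and the Alx genes were at 0.5 TPM or less in every library.

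Genes that act with or on Snail and Twist proteins were read from further lists. Beside the list counts below, 7.91% of all genes tested were called higher and 5.10% lower in Runx1KO against control. In ZebDKO against control the shares were 7.50% and 7.28%, and in Runx1KO against ZebDKO 9.20% and 6.59%. Of 19 Snail corepressors and regulators of Snail stability, 18 were tested and none was called in any comparison. With no limit on size, 7 rose and 3 fell in Runx1KO, beside 30.4% and 40.1% of all genes. In ZebDKO 5 rose and 10 fell, beside 26.9% and 52.5% of all genes. After median-ratio scaling 6 rose and 7 fell in ZebDKO, for which no share over all genes was taken. Of 12 TGF-beta signalling genes, a pathway that induces Snail and Twist genes in many cells, 2 were called lower in Runx1KO, Tgfb2 at -2.33 and Tgfbr3 at -1.498. In ZebDKO Smad7 at 1.82 and Skil at 1.04 were called higher and Tgfbr3 at -2.63 lower, or 2.02, 1.23 and -2.45 after median-ratio scaling.

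Of 22 epithelial genes that Snail or Twist factors are known to repress, 14 were tested in Runx1KO and 11 were called higher and 1 lower, with a median log2 fold change of 2.102. The largest rises were Krt8 at 9.46, Cldn4 at 7.70, Krt19 at 5.73 and Crb3 at 5.20, and Cldn1 was the gene called lower, at -1.05, which became -0.99 and ended the call after median-ratio scaling. In ZebDKO 13 were tested, with 11 called higher, none lower and a median of 1.89, led by Krt8 at 8.30. Median-ratio scaling gave the same counts in ZebDKO with a median of 1.96 and Krt8 at 8.47. Many genes of this list are also known Zeb targets. Cdh1, which encodes E-cadherin and is a classical Snail target, stayed at 0.6 TPM or less in all 9 libraries. Epcam was at 0 TPM in every control and Runx1KO library and had a mean of 27.9 TPM in ZebDKO.

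Of 25 mesenchymal genes, 17 were tested in Runx1KO, where 8 were called lower and none higher with a median of -0.91. The largest falls were Tnc at -5.36, Acta2 at -2.80, Col5a1 at -2.40 and S100a4 at -1.88. In ZebDKO 4 of 17 were called lower and 2 higher, with S100a4 at -2.47, Dcn at -1.67, Postn at -1.17 and Acta2 at 1.43. After median-ratio scaling 4 were called lower and 3 higher, with those genes at -2.26, -1.51, -1.06 and 1.61. Vim, the most abundant gene of the list, had a mean of 2803 TPM in control, 2806 in Runx1KO and 2089 in ZebDKO.

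Among cell type markers, kidney stroma genes summed to 147.7 to 160.7 TPM in control, 95.0 to 100.2 in Runx1KO and 84.5 to 88.1 in ZebDKO, the same order as Prrx2 and Tcf4. Nephron progenitor genes summed to 670.6 to 681.8, 716.4 to 784.6 and 615.3 to 645.5 TPM, with Pax2 and Hoxa11 highest in every group. Of 6 tested, 3 were called lower and 0 higher in Runx1KO, beside 5.10% and 7.91% of genes, with a median log2 fold change of -0.67. Mean Osr1 was 66.4 TPM in control and 0.4 in Runx1KO, Gdnf 12.7 and 0.1, and Eya1 16.2 and 5.87. With no limit on size, 2 passed the adjusted p upward and 3 downward. The 2 that rose were Pax2, with a mean of 313 TPM in control and 470 in Runx1KO, and Sall1, with 52.1 and 65.7. In ZebDKO 1 was called higher and 1 lower, beside 7.50% and 7.28% of genes. Endothelial genes summed to 5.8 TPM or less, nearly all from Cdh5, and ureteric genes to 1.6 TPM or less in every library, with Kdr at 0.1 TPM or less and Ret at 0 TPM. Blood genes summed to 5.9 to 8.1 TPM in control, 29.7 to 31.2 in Runx1KO and 24.5 to 27.1 in ZebDKO, nearly all from Csf1r in the knockouts, with Ptprc, Adgre1 and Hbb-b1 at 0 TPM. Whether a change in the mix of cells has a part in the changes of the members was not tested. In bulk RNA, fewer cells that express a gene and less RNA per cell cannot be told apart.

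The genes whose pattern over the 9 libraries was most like that of each member were found by Pearson's r of log2(TPM + 1) among 4640 genes that varied by at least 1 on that scale. These libraries form 3 groups, so r mainly describes the order and spacing of the group means. For Twist2 they were Fgfr1, H1fx and Nxpe4, with Fgfr1 at a mean of 2.77 TPM in control, 0.03 in Runx1KO and 1.03 in ZebDKO. For Tcf4 they were Adgra2, Gas1 and Gclc, with Gas1 at 71.3, 11.6 and 5.17 TPM in the same order. For Prrx2 they were Gm2115, Asph and Xpr1, for Snai1 Psmb10, Snx32 and Ccl17, and for Snai2 Ephb3, Prr19 and Ttc39aos1. The lowest r of these 15 pairs was 0.97, and in each pair the like gene had the same order of group means as the member.

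The chromatin around the 8 genes was read from ATAC-seq regions that the authors had sorted by their change of accessibility in Runx1KO cells into regions that closed (8741), opened (9427) or stayed stable (37481), and from 10187 Runx1 peaks in control, 17595 Runx2 peaks in control and 15608 Runx2 peaks in Runx1KO cells. ChIP-seq peaks were called on the combined reads of 3 replicates, so they carry no replicate error, and no ATAC-seq or ChIP-seq was analysed for ZebDKO cells. A peak missing from a list does not show absent binding, because signal may lie just under the calling limit. The paper considers this likely for many Runx1 peaks without a called Runx2 peak. A region was counted for a gene when any part of it lay within 100 kb of the transcription start, with genome build mm9.

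Regions that closed in Runx1KO lay near 4 of the 8 members, Snai1, Prrx2, Tcf4 and Foxc2, and near 56.3% of the 10708 protein-coding genes that were tested for expression in Runx1KO. Regions that opened lay near 6 of 8, against 68.2% of genes, and stable regions near 7 of 8, against 98.7%. Runx1 peaks lay near 6 of 8, against 73.2%. Runx2 peaks lay near 7 of 8 in control and 6 of 8 in Runx1KO, against 91.6% and 91.0%. No test was made of these counts. The background holds only genes that passed the expression filter, whereas Twist1, Prrx1 and Foxc2 did not pass it. The members without an opened region, a stable region or a Runx peak were Twist1, Prrx1 or both in each case. Closed regions were also lacking at Snai2 and Twist2. Twist1 had no ATAC-seq region of any class within 100 kb, and Prrx1 had 2 stable regions and no Runx peak.

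**Figure D4:**
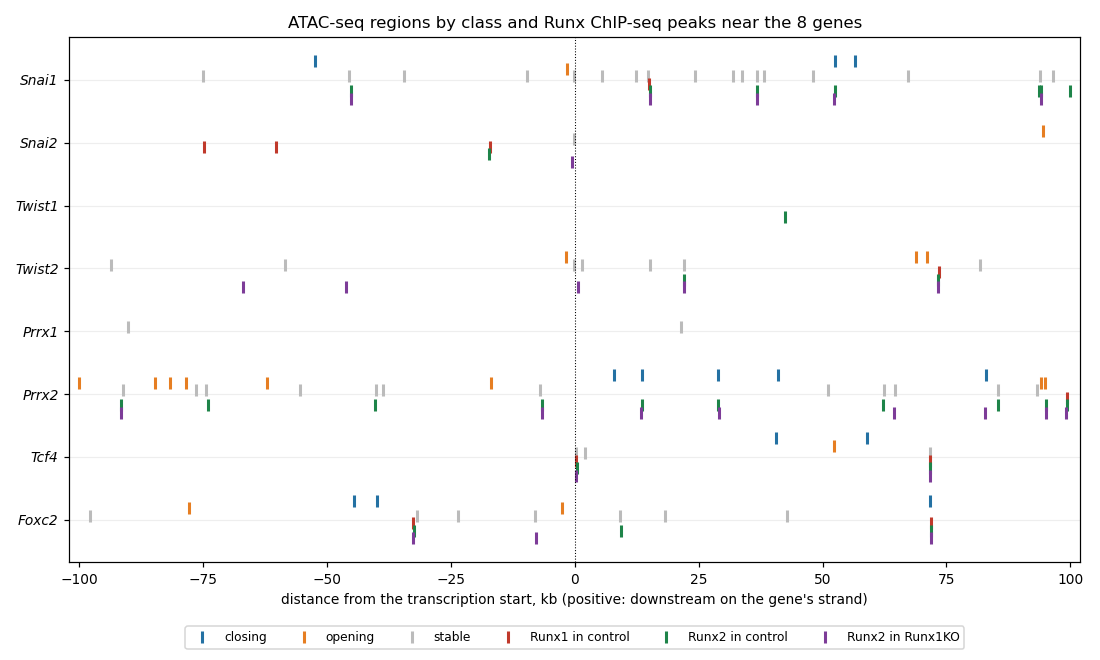
Positions of ATAC-seq regions (closed, opened or stable in Runx1KO) and of Runx1 and Runx2 ChIP-seq peaks within 100 kb of the transcription start of each of the 8 genes, with distance in kb on the horizontal axis and 1 tick per region or peak. Prrx2 has 5 closing and 8 opening regions, Twist2 has 3 opening and no closing region, and Twist1 has a single Runx2 peak.

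Opened regions lay just upstream of 3 members, Snai1, Twist2 and Foxc2, and the middle 150 bases of each are shown because each holds 1 match to CACCTG, an E-box that Snail, Zeb and E proteins are known to bind. Matches were sought on both strands, so CAGGTG counts too, and they are in capitals. The windows are printed on the plus strand of mm9, 5′ to 3′, read from the reference genome. The region near Snai1 lay 1.6 kb upstream of the start of the gene (chr2:167363695-167368314, plus strand), in intergenic sequence, with the window chr2:167362064-167362213. The region near Twist2 (chr1:93698038-93744605, plus strand) lay 1.8 kb upstream of the start, also intergenic, with the window chr1:93696170-93696319. The region near Foxc2 (chr8:123640071-123642792, plus strand) lay 2.6 kb upstream, in an intron of the predicted gene Gm20388, with the window chr8:123637418-123637567.
Snai1 upstream region: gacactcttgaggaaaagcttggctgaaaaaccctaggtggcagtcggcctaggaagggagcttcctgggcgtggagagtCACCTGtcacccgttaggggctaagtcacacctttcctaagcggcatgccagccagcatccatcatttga
Twist2 upstream region: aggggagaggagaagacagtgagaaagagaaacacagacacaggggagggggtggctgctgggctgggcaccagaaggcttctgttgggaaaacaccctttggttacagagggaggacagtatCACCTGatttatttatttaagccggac
Foxc2 upstream region: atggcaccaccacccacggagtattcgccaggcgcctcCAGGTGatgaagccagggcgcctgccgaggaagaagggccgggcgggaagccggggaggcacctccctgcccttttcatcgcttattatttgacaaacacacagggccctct
Of all opened regions, 31.1% held this E-box in a window of the same length, against 6.61% of closed and 13.3% of stable regions. A match is a description of the sequence and not a binding site. Of the genes next to these opened regions, Snai1 and Twist2 fell in Runx1KO, and no direction can be given for Foxc2.

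The paper lists Twist2 among genes lower in Runx1KO near lost ATAC-seq peaks bound by Runx1 and Runx2. Twist2 had no closed region within 100 kb but 4 in the wider domain up to the neighbouring genes, at 223.4, 109.7 and 108.3 kb upstream and 116.6 kb downstream. The one at 108.3 kb, nearest to the Twist2 start, overlapped Runx2 peaks of both lines and no listed Runx1 peak. Fold enrichments there were 3.17 for control Runx2 and 3.27 for Runx1KO Runx2. The one at 223.4 kb upstream overlapped a Runx1 peak in control and Runx2 peaks in both lines, with fold enrichments over local background of 4.73 for Runx1, 4.50 for control Runx2 and 4.76 for Runx1KO Runx2. Its nearest protein-coding start was that of Asb1, not Twist2, and it lay in intergenic sequence at chr1:93474240-93475087. A second Runx1 peak lay 127.2 kb upstream within a stable region and overlapped Runx2 peaks of both lines. Fold enrichments there were 4.29 for Runx1, 3.91 for control Runx2 and 4.86 for Runx1KO Runx2. Another Runx1 peak lay 73.4 kb downstream outside every ATAC-seq region, with Hdac4 as the nearest start. The downstream peak had a fold enrichment of 4.00 for Runx1, 5.50 for control Runx2 and 6.30 for Runx1KO Runx2.

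**Figure D5:**
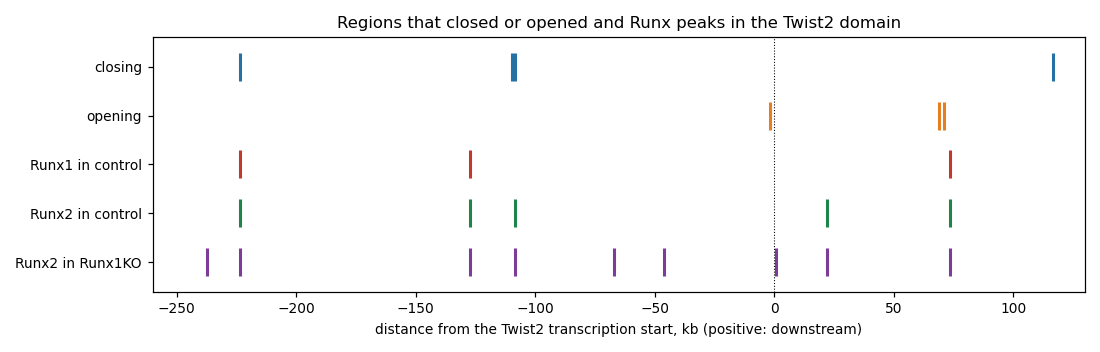
Regions that closed or opened in Runx1KO and Runx1 and Runx2 ChIP-seq peaks around Twist2, by distance in kb from its transcription start, with 1 tick per region or peak and stable regions left out. Runx1 and both Runx2 lists share positions at 223.4 kb upstream, near 127 kb upstream and near 73 kb downstream. Only the one at 223.4 kb is a closed region.

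The sequences of 2 of these Runx1-bound places near Twist2 and of a Runx2 peak are shown with matches to TGTGGT, the letters that Runx proteins are known to recognise, in capitals on either strand (ACCACA on the plus strand marks a match on the minus strand). The middle 150 bases of the closed region are chr1:93474589-93474738, and they hold 1 match. The 120 bases around the summit of the downstream Runx1 peak are chr1:93771335-93771454, and they hold 2 matches. The 120 bases around the summit of the Runx1 peak at 127.2 kb upstream hold 0 matches and are not shown. The 120 bases around a Runx2 peak found in the Runx1KO list alone, 0.7 kb downstream of the Twist2 start, are chr1:93698667-93698786, within a stable region, and they hold 1 match. This peak is labelled exonic because it overlaps an exon of Twist2, which does not place the whole window or its match in the exon.
Twist2 far upstream closed region: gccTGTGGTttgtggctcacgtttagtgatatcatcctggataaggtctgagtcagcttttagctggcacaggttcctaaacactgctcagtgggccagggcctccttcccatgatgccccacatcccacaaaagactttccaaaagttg
Twist2 downstream Runx1 peak: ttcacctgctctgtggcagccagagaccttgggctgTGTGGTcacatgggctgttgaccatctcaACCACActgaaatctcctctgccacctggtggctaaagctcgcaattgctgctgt
Twist2 exonic Runx2 peak: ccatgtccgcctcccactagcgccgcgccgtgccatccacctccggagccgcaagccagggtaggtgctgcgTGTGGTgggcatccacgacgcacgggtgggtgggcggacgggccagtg
This motif was in 21.3% of closed, 11.1% of opened and 10.8% of stable windows, and in 26.4% of Runx1, 29.2% of control Runx2 and 32.2% of Runx1KO Runx2 windows. The closed window also held 1 match to TGACTCA or TGAGTCA, the AP-1 site, which 20.6% of closed windows held.

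Prrx2 had the most regions that closed, with 5 within 100 kb, of which 4 lay in its own introns at 7.9, 13.5, 28.9 and 41.1 kb downstream of its start (gene at chr2:30690492-30736761, plus strand). For each of these 4 the nearest protein-coding start was that of Prrx2. The regions at 13.5 and 28.9 kb overlapped Runx2 peaks in control and in Runx1KO, and no Runx1 peak was listed in them. The fold enrichment of Runx2 at 28.9 kb was 5.48 in control and 4.28 in Runx1KO, and at 13.5 kb it was 3.17 and 3.46. The 120 bases around the Runx2 summit of each of these regions hold 1 match to TGTGGT in control and 0 in Runx1KO. Those 2 intronic regions are shown because each holds 1 match to TGTGGT, with windows at chr2:30703915-30704064 and chr2:30719326-30719475 and the match in capitals.
Prrx2 first intronic region: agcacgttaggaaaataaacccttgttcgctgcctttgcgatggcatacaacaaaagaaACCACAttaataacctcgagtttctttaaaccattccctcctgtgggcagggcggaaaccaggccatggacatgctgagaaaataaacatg
Prrx2 second intronic region: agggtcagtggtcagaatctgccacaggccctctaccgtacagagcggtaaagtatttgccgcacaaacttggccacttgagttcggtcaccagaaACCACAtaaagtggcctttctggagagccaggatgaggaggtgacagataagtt
The 8 opening regions near Prrx2 lay outside the gene, and the nearest start of each was that of 1700001O22Rik, Mettl11a or Ptges.

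Foxc2 lay 71.7 kb from a closed region that overlapped a Runx1 peak and Runx2 peaks of both lines, with fold enrichments of 4.71 for Runx1, 5.67 for control Runx2 and 4.90 for Runx1KO Runx2. The region is in an intron of the predicted gene Gm20388, and its nearest protein-coding start is that of Foxc2. Its middle window, chr8:123711696-123711845, is shown because it holds 1 match to TGTGGT, in capitals, beside 2 AP-1 matches. The 120 bases around the summit of each of the Runx1 and Runx2 peaks in this region hold 0 matches to TGTGGT.
Foxc2 downstream closed region: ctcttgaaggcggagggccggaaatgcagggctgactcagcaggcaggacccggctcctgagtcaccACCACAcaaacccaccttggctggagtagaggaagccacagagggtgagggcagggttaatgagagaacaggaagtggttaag
Foxf1, which the annotation lists as Foxf1a, shares this stretch of the chromosome with Foxc2, and the other closed regions near Foxc2, at 44.5 and 40.0 kb upstream, were nearest to the Foxf1a start.

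Tcf4 carried Runx peaks at its own start. Runx1 peaks lay 0.3 and 71.7 kb downstream of the annotated start, both in stable regions and both overlapped by Runx2 peaks in control and in Runx1KO. At the start the fold enrichment was 6.42 for Runx1, 6.83 for control Runx2 and 4.02 for Runx1KO Runx2, and at 71.7 kb it was 5.25, 5.37 and 6.10. Closed regions of Tcf4 lay in its introns at 40.5 and 59.0 kb, without a listed Runx peak, and at 125.5, 158.3 and 203.7 kb. Those at 125.5 and 203.7 kb each overlapped a Runx2 peak of the control list and none of the Runx1KO list.

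Within 100 kb, Snai1 had 1 Runx1 peak and 7 Runx2 peaks in control and 5 Runx2 peaks in Runx1KO, and Snai2 had 3 Runx1 peaks and 1 Runx2 peak in each line. At Snai1, a stable region 14.7 kb downstream held a Runx1 peak with a fold enrichment of 3.90 and Runx2 peaks in both lines, and the stable region over its start had no listed Runx peak. The 3 closed regions near Snai1 lay 52.4 kb upstream and 52.5 and 56.5 kb downstream, each nearest to the start of another gene. Snai2 (chr16:14705945-14709488, plus strand) had no closed region, 1 opened region at 94.5 kb, and a stable region over its start. That stable region held a Runx2 peak in the Runx1KO list, with a fold enrichment of 3.45, and none in the control list. Its 3 Runx1 peaks, 74.9, 60.3 and 17.2 kb upstream, lay outside every ATAC-seq region. The 120 bases around each of their summits hold 0 matches to TGTGGT, and those at 74.9 kb are a tandem repeat. Most of the window at 60.3 kb nearly matches, on the other strand, that of a Runx1 peak 152.4 kb downstream of the Prrx1 start. Its sequence is therefore not unique either. Whether the window at 17.2 kb lies in a repeat was not tested.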

How the data were processed

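The authors aligned reads to mm9, counted them on genes and deposited TPM values, in a table of 9 libraries used here and a table of 6 libraries used as an alternative. How the tables differ and the strand setting are not given in the sources used here. The submitters' processing notes name featureCounts 1.6.2 and DESeq2 1.26.0, but TPM allows no count model. The deposited ChIP-seq lists give the authors' fold enrichment, a linear ratio, and −log10 q value for each peak, called with MACS2. The deposited ATAC-seq lists also hold the authors' own comparison, which was not used.

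Members, lists and tests were chosen with earlier results of these data known. limma 3.58.1 with a mean-variance trend was fitted to log2(TPM + 1) of the 6 libraries of each comparison, and was tested on simulated data. Members under the filter were compared by an exact permutation test. Each list is described by counts, with up to 4 called genes of the largest change per comparison, or in full for 6 genes or fewer; other single levels (Cdh1, Vim, Six2) were chosen after their values were seen. An item of the TGF-beta list is not reported here. Starts are from GENCODE vM1 on NCBIM37, which is mm9, with distances to the middle of ATAC-seq regions and the summit of ChIP-seq peaks. The wider domain of a gene ran from 5 kb upstream to 1 kb downstream of its start and on to the neighbouring domains, up to 1000 kb. Alternatives were other pseudocounts, filters, scalings, fits, peak limits, a replicate block and each library left out in turn.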

Additional observations from a re-analysis of the deposited data

How the results depend on the processing

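No tested change of a member reversed under any alternative. All 5 members in Runx1KO against control and Twist2, Prrx2 and Tcf4 in ZebDKO against control kept their side of an adjusted p of 0.05 in every setting run. Snai1 and Snai2 in ZebDKO each lost it in 7 of 15 settings (limma adjusted p 0.0043 to 0.116 and 0.0018 to 0.116), and Tcf4 between the knockouts lost it under median-ratio scaling (0.0859) and quantile normalization (0.851). With a 1.3-fold limit the called members numbered 5 in Runx1KO, 3 in ZebDKO and 3 between the knockouts, against 1 each at 2-fold. Over all genes this limit called 2413 higher and 2444 lower of 13067 in Runx1KO. It called 2244 and 4502 of 12974 in ZebDKO, and 4376 and 2404 of 13071 between the knockouts. In ZebDKO no member was called under median-ratio scaling or quantile normalization (0 in each), where all 5 still passed the adjusted p. The count between the knockouts ranged from 0 to 1 when single libraries were left out. Over all genes, median-ratio scaling changed the calls in ZebDKO from 973 higher and 944 lower to 1188 and 651, and between the knockouts from 1203 and 861 to 912 and 1054. Members with a closed region numbered 4 within 100 kb, 1 within 20 kb and 7 by the wider domains, and those with a Runx1 peak 6 within 100 kb and 3 within 20 kb. The share over all genes was taken for 100 kb alone, so the other counts have no background beside them. Same-numbered libraries did not deviate together (correlations -0.05 to 0.04), and with the replicate number as a block Snai2 in ZebDKO had an adjusted p of 0.0814 while the other member calls did not change, with 1 member past 2-fold in each comparison. Depth is unknown, so genes under 1 TPM such as Twist1, Prrx1 and Foxc2 cannot be placed more finely than the values listed.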
